A study of Mus musculus with 16 samples.

Results

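In mouse lung, 39 genes had lower RNA levels at 12 months than at 2 months in ARF-DTR mice, and higher levels after the 12-month mice were given diphtheria toxin (DT) than after saline (PBS). They were chosen by a rule from 25606 genes measured on 16 single-colour Agilent arrays. The rule asked that all 4 arrays of 12-month ARF-DTR mice given PBS lie below all 4 arrays of 2-month ARF-DTR mice and below all 4 arrays of 12-month ARF-DTR mice given DT. It also asked that the mean log2 signal with PBS be at least 0.4 below that at 2 months, that DT exceed PBS by at least 0.4, and that DT in ARF-DTR exceed PBS in wild type (WT) by at least 0.2. In the deposited values, 2051 genes had all PBS arrays below all 2-month arrays, 679 of these also below all DT arrays, 142 met the size set for age, 101 also that for DT, and 39 also that against WT PBS. The named genes for which the smaller of the age and DT differences was largest were the matrix gene Matn4, the lipase gene Pnpla5, the protease inhibitor Tfpi2, Veph1, the interferon-induced Ifi44 and the squamous gene Sprr1a.

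ARF-DTR mice carry the receptor for DT under control of the Arf promoter, so that cells with that promoter active can be killed by the toxin. Arf, one of the proteins of the Cdkn2a locus, is a marker of senescent cells. All mice were female. The ARF-DTR samples were 4 of uninjected mice aged 2 months, and 4 given PBS and 4 given DT at the age of 12 months. The WT samples, all aged 12 months, were 2 given PBS and 2 given DT. PBS or DT, the latter at 50 microgram per kg body weight, was given into the peritoneum at an interval of 2 weeks over 1 month. Mouse cells bind the toxin poorly without this receptor, so the WT mice given DT show what injection of the toxin does without the transgene. Age and injection went together in the ARF-DTR mice, because the young mice were not injected.

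The 75th percentile of the signal, to which each array was scaled, was 613 to 1088 intensity units, and 55.6% to 67% of probes passed the scanner's test for being well above background. One slide held the 2-month and the ARF-DTR PBS arrays, and the other held the ARF-DTR DT arrays and all WT arrays. The age difference and every difference between ARF-DTR DT and WT therefore lay within a slide, and DT minus PBS in ARF-DTR and DT minus 2 months crossed slides, where slide and group cannot be told apart. The 2-month and ARF-DTR DT arrays were in row 1 of their slides, and the ARF-DTR PBS and all WT arrays in row 2. Every difference of the rule thus set row 1 against row 2, and row and group cannot be told apart in them. The same holds for ARF-DTR DT against WT DT. For 1 of the WT PBS samples the free description names DT, and the descriptions of the WT DT samples do not. The groups follow the titles, with which source and treatment did not conflict, and every WT difference below rests on that choice. Lung identity was clear on every array, with the surfactant gene Sftpc at 8.55 to 9.36 and the club cell gene Scgb1a1 at 8.50 to 9.17 on the log2 scale used below, where 0 is the 75th percentile. Cdkn2a, the locus whose Arf promoter drives the receptor, lay between -2.25 and -1.27 at 2 months, -2.29 and -1.79 with PBS and -2.18 and -1.19 with DT in ARF-DTR, so the groups overlapped; the files do not say whether its probe reads Arf, Ink4a or both.

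Some members have known roles. Matrix proteins, proteases and their inhibitors are made largely by fibroblasts and other stromal cells, and they set how the walls of airways, vessels and alveoli are built and remodelled. Interferon-induced genes are switched on by STAT and IRF factors that bind a DNA element called the interferon-stimulated response element (ISRE), and act against viruses in many lung cell types. Siglec-F is a surface lectin of alveolar macrophages and eosinophils in the mouse, and cardiac muscle cells extend from the heart into the large pulmonary veins, so that lung tissue can hold cardiac transcripts. In whole lung, fewer cells of a type and less RNA per cell cannot be told apart.

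The promoters of Isg15, Ifit1, Sprr1a and Tfpi2 are shown because they hold the letters of the motifs found in several members, with the bases that match in capitals. Each runs 5′ to 3′ on the strand of its gene, from 250 bases before to 50 bases after the start in RefSeq on GRCm38.p6, at chr4:156200769-156201068 on the minus strand for Isg15, chr19:34640639-34640938 on the plus strand for Ifit1, chr3:92485832-92486131 on the minus strand for Sprr1a, and chr6:3968326-3968625 on the minus strand for the 1 of 3 listed Tfpi2 starts with a match. In Isg15 and Ifit1 the capitals mark the core of the ISRE, searched as GAAA followed by any 2 bases and GAAA again, or the reverse complement of that. In Sprr1a and Tfpi2 they mark TGANTCA, the AP-1 motif, which is bound by Fos and Jun dimers.
Isg15: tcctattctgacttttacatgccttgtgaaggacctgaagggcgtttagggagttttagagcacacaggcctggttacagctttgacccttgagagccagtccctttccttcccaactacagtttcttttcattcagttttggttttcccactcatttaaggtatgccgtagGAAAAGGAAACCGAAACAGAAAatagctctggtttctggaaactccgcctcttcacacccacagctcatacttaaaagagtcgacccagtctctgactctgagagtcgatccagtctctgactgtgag
Ifit1: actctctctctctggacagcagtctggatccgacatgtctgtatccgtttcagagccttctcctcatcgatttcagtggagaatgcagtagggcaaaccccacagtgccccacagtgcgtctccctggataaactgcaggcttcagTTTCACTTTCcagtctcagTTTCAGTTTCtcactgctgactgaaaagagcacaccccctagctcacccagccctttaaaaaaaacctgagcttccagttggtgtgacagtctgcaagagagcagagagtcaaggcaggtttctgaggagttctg
Sprr1a: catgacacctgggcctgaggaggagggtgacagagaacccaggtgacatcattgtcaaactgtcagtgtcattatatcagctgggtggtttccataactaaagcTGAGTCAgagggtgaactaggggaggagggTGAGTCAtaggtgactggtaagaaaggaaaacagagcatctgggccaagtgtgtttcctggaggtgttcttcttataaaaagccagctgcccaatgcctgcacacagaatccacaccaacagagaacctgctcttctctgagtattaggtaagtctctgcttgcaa
Tfpi2: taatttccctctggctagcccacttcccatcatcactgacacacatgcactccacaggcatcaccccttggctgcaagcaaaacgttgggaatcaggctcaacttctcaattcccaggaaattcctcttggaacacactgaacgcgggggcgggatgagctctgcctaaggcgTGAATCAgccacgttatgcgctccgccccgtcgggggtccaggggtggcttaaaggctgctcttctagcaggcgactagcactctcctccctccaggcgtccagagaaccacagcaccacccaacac
In Isg15, 3 matches overlapped, the first beginning 78 bases before the start. Ifit1 had 2, beginning 104 and 85 bases before the start, and Sprr1a had 2 AP-1 matches.

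Promoters were listed for 27 of the 39 members and for 12831 of all genes, matched by symbol, and both strands were searched. The AP-1 letters stood in the promoters of 7 members (25.9%), namely Sprr1a, Tfpi2, Capn6, Itga9, Xaf1, 2200002D01Rik and D10Bwg1379e (Arfgef3 in RefSeq), against 7.05% of all genes and 5.96% of all promoters. The ISRE letters, added after the members were seen, stood in 4 members (14.8%), Isg15, Ifit1, Capn6 and Clec4b1, against 3.83% of all genes and 3.18% of all promoters, and in neither Ifi44 nor Xaf1. The GC box GGGCGG was in 11 members (40.7%, all genes 59.7%) and CCAAT in 13 (48.1%, all genes 41.9%). The glucocorticoid element motif AGAACA was in 4 (14.8% against 16.5%), TATAAA in 2 (7.41% against 11%), and CACGTG and TTCNNNGAA in 1 each (3.7%, against 10.3% and 8.76%). TTATGTAA, TGACGTCA and GACCACCCA were in 0 of the 27, and in 0.857%, 3.14% and 0.226% of all genes. These are letter matches in a window of 300 bases and describe no binding.

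Over the 39 members the median difference between PBS at 12 months and 2 months was -0.64 on the log2 scale (range -2.20 to -0.41), with a median over all genes of -0.03. The median of DT minus PBS was 0.83 (0.41 to 1.95; all genes 0.00), and that of ARF-DTR DT minus WT PBS was 0.60 (0.20 to 2.16; all genes 0.00). These 3 differences chose the members and have no test. Over all genes in the scanner values, all PBS arrays lay below all 2-month arrays in 7.96%, all DT arrays above all PBS arrays in 15.7%, and all ARF-DTR DT arrays above both WT PBS arrays in 16.1%, the last being so in 31 members. In linear terms the 2-month level was 1.33 to 4.60 times the PBS level (median 1.56) and the DT level 1.33 to 3.86 times (median 1.78). Levels were at least 2-fold apart for 6 members with age and for 14 with DT. Both differences use the same 4 PBS arrays, so any of them that read low by error enlarged both the fall with age and the rise after DT. The opposite rule, with PBS above 2 months and above DT and with DT below WT PBS, found 114 genes. At the borders, Ifit1 was inside by 0.001 between its highest PBS and lowest 2-month array, and Xaf1 (0.204) and Zcchc14 (0.207) by DT minus WT PBS. Ctnnbip1 (DT minus PBS 0.398), E2f7 (0.396) and Zfp651 (DT minus WT PBS 0.198) were just outside.

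**Figure D1:**
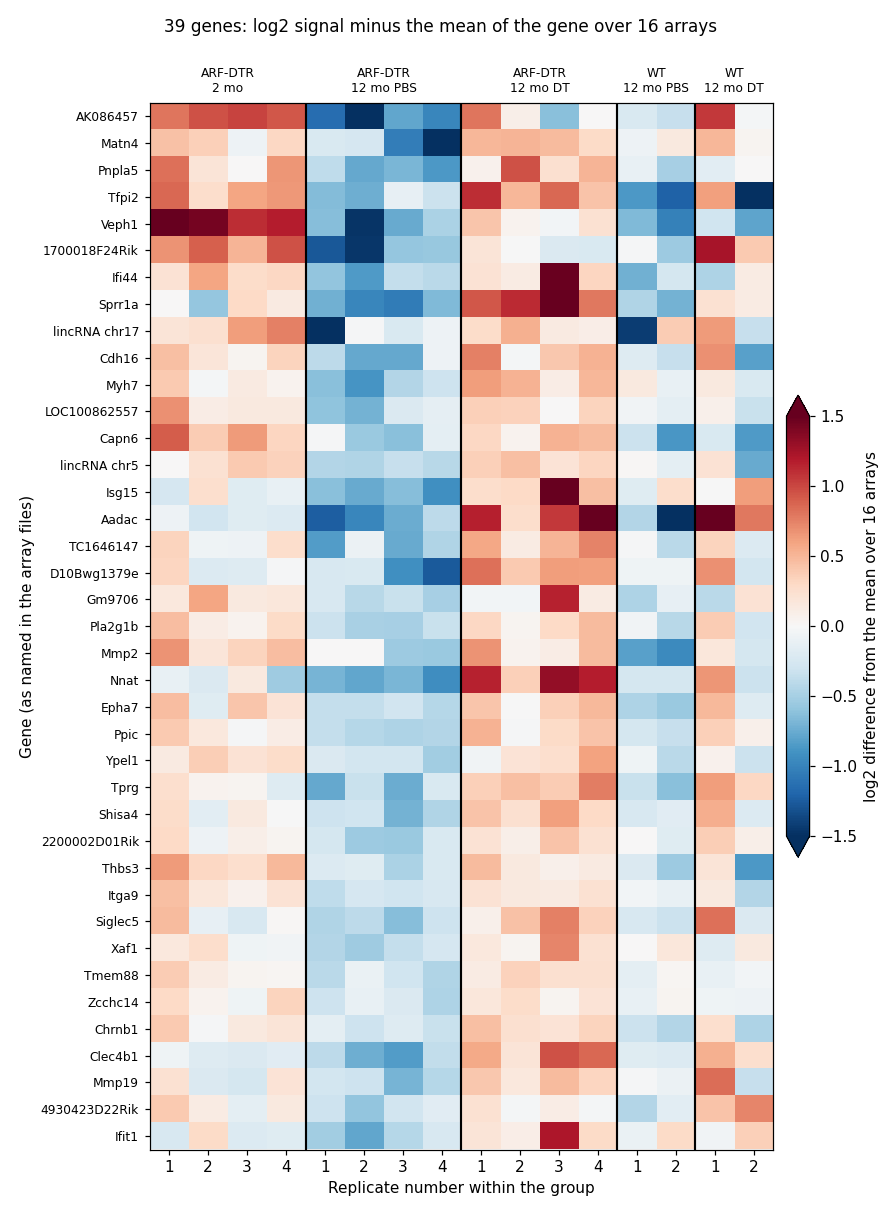
Log2 signal of the 39 genes (rows) on the 16 arrays (columns, by group and replicate number), as the difference from the mean of the gene over all arrays (red higher, blue lower, colours end at 1.5). In every row the 4 PBS arrays of ARF-DTR lie below the 2-month and ARF-DTR DT arrays, as the rule asked, and the column of WT DT replicate 1 is redder than that of replicate 2 in most rows.

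Among the matrix and adhesion genes, Matn4, which encodes the matrix adaptor matrilin 4, read 2.16, 2.08, 1.64 and 2.03 at 2 months, 1.49, 1.47, 0.68 and -0.19 with PBS and 2.22, 2.23, 2.19 and 2.01 with DT. It read 1.64 and 1.86 in WT with PBS and 2.21 and 1.76 in WT with DT. Replicates 3 and 4 were the low PBS arrays, and both WT PBS arrays lay above all 4 ARF-DTR PBS arrays. The mean with PBS was 1.11 below 2 months and 1.30 below DT. Mmp2, gelatinase A, read 2.78, 2.29, 2.44 and 2.57 at 2 months, 2.12, 2.12, 1.57 and 1.55 with PBS, 2.79, 2.16, 2.22 and 2.59 with DT, 1.30 and 1.16 in WT with PBS and 2.28 and 1.85 in WT with DT. Here the WT PBS arrays were the lowest of all, below every ARF-DTR PBS array, and both WT DT arrays lay above them.

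Thbs3, a thrombospondin of the matrix, was among the brightest members, at 4.34, 4.01, 3.95 and 4.19 at 2 months, 3.50, 3.52, 3.23 and 3.47 with PBS and 4.18, 3.85, 3.78 and 3.84 with DT. In WT it read 3.48 and 3.16 with PBS and 3.89 and 2.84 with DT, so the WT DT arrays lay on both sides of the WT PBS arrays. Tfpi2, a Kunitz-type inhibitor of serine proteases in the matrix, was dim, at -4.87 to -4.27 at 2 months, -5.86 to -5.25 with PBS and -4.71 to -4.03 with DT. It was well above background on only 1 of the 4 ARF-DTR PBS arrays. In WT it read -5.99 and -6.35 with PBS, not well above background, and -4.52 and -7.10 with DT. ARF-DTR DT was at least 2.40-fold above WT PBS. A fold given as "at least" sets the brighter group against the dimmer after raising each dim array to the lowest signal well above background on it. Mmp19, another metalloproteinase, was 0.41 lower with PBS than at 2 months and 0.77 higher with DT than with PBS. Itga9, an integrin subunit that binds tenascin and other matrix ligands, lay between 1.66 and 2.05 at 2 months, 1.21 and 1.35 with PBS and 1.73 and 1.82 with DT. Epha7, a receptor for ephrins, was 0.58 lower with age and 0.67 higher with DT on its brightest probe, but its other probes did not rise with DT. Ppic, the prolyl isomerase cyclophilin C and the brightest member, was 0.58 lower and 0.73 higher.

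Other genes of the matrix, from a list of 26 that includes elastin, fibrillins and laminins but no metalloproteinase, held 0 members. Their median was -0.27 with age (24 of 26 below 0) and 0.02 for DT minus PBS (15 above 0, 11 below). Against 2 months, 12 of the 26 were lower and 1 higher after DT by limma's moderated test at a Benjamini-Hochberg adjusted p under 0.05, where 15.9% of all genes were called lower and 14.8% higher. A list of 18 fibroblast markers likewise had 0 members, a median of -0.32 with age and 0.03 for DT minus PBS, and 6 lower and 0 higher in DT against 2 months.

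**Figure D2:**
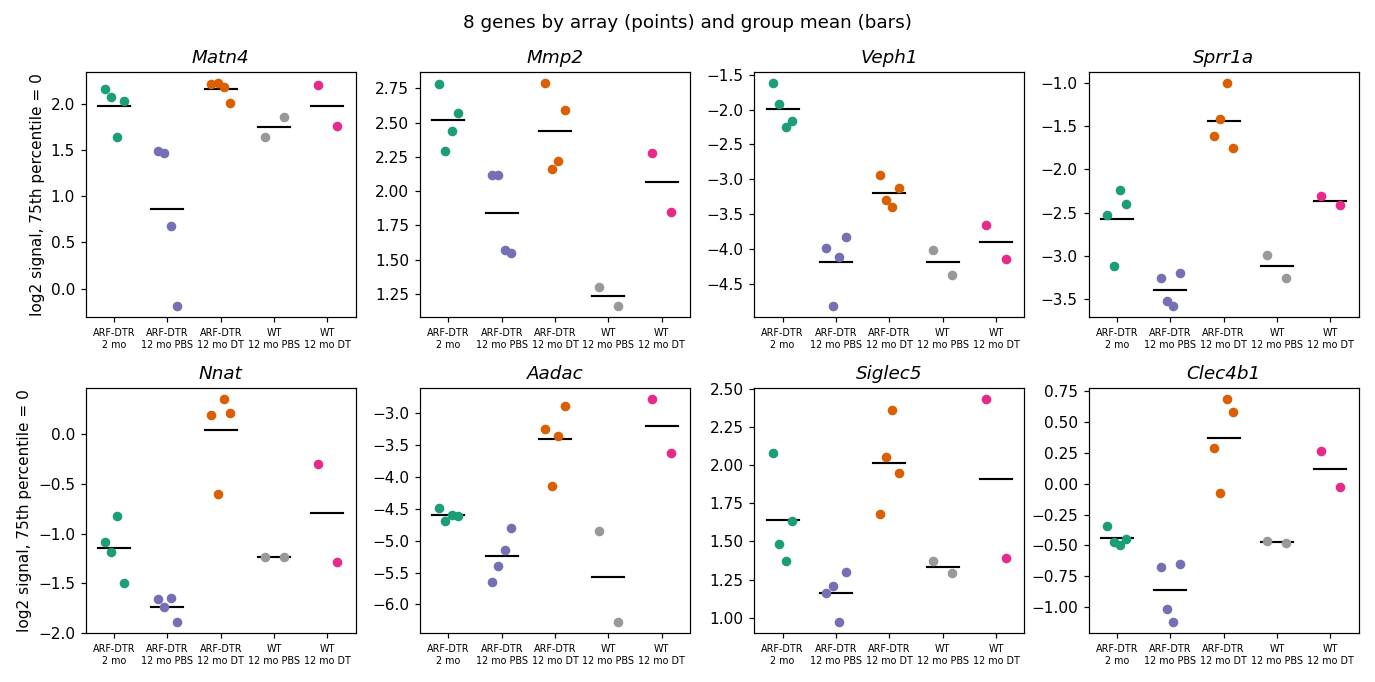
Log2 signal (0 is the 75th percentile of the array) of 8 genes in the 5 groups, with a point per array and a bar at the group mean. Sprr1a, Nnat and Clec4b1 lie higher after DT than at 2 months, Veph1 lies between PBS and 2 months after DT, and the 2 WT DT points of Siglec5 are 2.43 and 1.39.

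Sprr1a, a precursor of the cornified envelope of squamous epithelium, had the largest difference between DT and PBS. It read -2.53, -3.12, -2.24 and -2.40 at 2 months, -3.26, -3.52, -3.58 and -3.20 with PBS, -1.61, -1.42, -1.0 and -1.75 with DT, -2.99 and -3.25 in WT with PBS, and -2.31 and -2.41 in WT with DT. All ARF-DTR DT arrays lay above every other array. The 6 other measured genes of the basal and squamous list held no member, and the list's median for DT minus PBS was 0.16 with 4 of 7 genes above 0. Tprg was dim, being well above background on 2 of the 4 ARF-DTR PBS arrays, and its ARF-DTR DT level was at least 1.96-fold that of WT PBS. Cdh16, a cadherin known from kidney epithelium, lay at 1.21 to 1.61 at 2 months, 0.40 to 1.09 with PBS and 1.14 to 1.92 with DT, with 1.85 and 0.35 in the WT DT arrays. Capn6, a calpain without protease activity that binds microtubules, was 0.90 lower with age and 0.68 higher with DT, and all 4 ARF-DTR DT arrays lay above all 4 WT arrays.

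Nnat, the imprinted gene of the membrane protein neuronatin, read -1.08, -1.18, -0.82 and -1.50 at 2 months, -1.66, -1.74, -1.65 and -1.89 with PBS and 0.19, -0.60, 0.35 and 0.21 with DT. WT PBS arrays both read -1.23, and WT DT arrays read -0.30 and -1.28. Replicate 2 was the low DT array and still lay above all 2-month arrays. Veph1, which encodes a protein with a pleckstrin homology domain, had the largest difference with age. It read -1.62, -1.92, -2.25 and -2.17 at 2 months, -3.99, -4.82, -4.11 and -3.83 with PBS and -2.94, -3.30, -3.40 and -3.13 with DT. The WT arrays, at -4.01 and -4.37 with PBS and -3.65 and -4.14 with DT, lay beside the ARF-DTR PBS arrays.

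Enzymes of lipids and esters were also among the members. Aadac, an esterase of the endoplasmic reticulum, read -4.48, -4.69, -4.59 and -4.61 at 2 months, -5.64, -5.39, -5.15 and -4.80 with PBS, -3.24, -4.14, -3.35 and -2.89 with DT, -4.85 and -6.28 in WT with PBS and -2.78 and -3.62 in WT with DT. All 6 DT arrays of both genotypes lay above all other arrays. With PBS in ARF-DTR, Aadac was well above background on only 1 of 4 arrays. Against the WT PBS arrays, which were not well above background, ARF-DTR DT was at least 4.0-fold and WT DT at least 4.60-fold higher. Pnpla5, a patatin-like lipase, was not well above background on any PBS array, and its level was at least 2.14-fold higher at 2 months and at least 2.17-fold higher with DT. Pla2g1b, a secreted phospholipase A2, lay at 0.52 to 0.93 at 2 months, -0.03 to 0.15 with PBS and 0.51 to 0.94 with DT.

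Siglec5 is the files' name for the gene that RefSeq lists as Siglecf. It read 2.08, 1.48, 1.37 and 1.63 at 2 months, 1.16, 1.21, 0.97 and 1.30 with PBS, 1.68, 2.05, 2.36 and 1.95 with DT, 1.37 and 1.29 in WT with PBS and 2.43 and 1.39 in WT with DT. It is 1 of 12 alveolar macrophage markers on the fixed list, whose median was -0.09 with age, 0.69 for DT minus PBS (9 of 12 above 0) and 0.52 for WT DT minus WT PBS (12 of 12 above 0). Against 2 months, 7 of the 12 rose after DT, including Chi3l3, Ear1, Ear2 and Mrc1, and 0 fell, where 14.8% of all genes rose and 15.9% fell. Siglec5 was at 0.37. The mean log2 signal of the list ranged from 3.43 to 3.58 at 2 months, 3.17 to 3.77 with PBS, 3.70 to 4.14 with DT, 3.42 to 3.55 in WT with PBS and 3.92 to 4.33 in WT with DT, and its part in the result for Siglec5 was not tested. Marco, a scavenger receptor, was 1 of the 3 genes on the list below 0 for DT minus PBS, at -0.69, and read 1.69 to 3.80 on the ARF-DTR DT arrays. Clec4b1, a C-type lectin of myeloid cells, read -0.34, -0.47, -0.50 and -0.45 at 2 months, -0.67, -1.01, -1.12 and -0.65 with PBS, 0.29, -0.08, 0.68 and 0.58 with DT, -0.46 and -0.48 in WT with PBS and 0.26 and -0.03 in WT with DT. All 6 DT arrays lay above the other 10. The 12 alveolar type 2 cell markers on the fixed list held 0 members but had the signs of the rule: 12 were below 0 with age (median -0.07, all genes -0.03), and 12 above 0 for DT minus PBS (0.61) and for DT minus WT PBS (0.36). In WT mice 11 of the 12 were also above 0 for DT minus PBS (median 0.18). With PBS, WT exceeded ARF-DTR, across slides, in 10 of the 12 (median 0.32). Against 2 months 7 of the 12 type 2 markers rose after DT in ARF-DTR and 0 fell.

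The interferon-induced members were Isg15, a ubiquitin-like modifier, Ifit1, which binds viral RNA, Ifi44, and Xaf1, an interferon-induced partner of an apoptosis inhibitor. Isg15 read 2.76, 3.26, 2.83 and 2.90 at 2 months, 2.38, 2.26, 2.37 and 2.09 with PBS, 3.27, 3.31, 4.52 and 3.46 with DT, 2.83 and 3.28 in WT with PBS and 3.01 and 3.64 in WT with DT. Ifi44 read 0.10, 0.47, 0.15 and 0.19 at 2 months, -0.72, -0.97, -0.48 and -0.53 with PBS, 0.09, 0.00, 1.36 and 0.20 with DT, -0.84 and -0.39 in WT with PBS and -0.59 and 0.00 in WT with DT. DT replicate 3 was the highest array of all 16 for both. It stood 1.18 above the mean of the other DT arrays for Isg15, 1.26 for Ifi44, 1.02 for Ifit1 and 0.58 for Xaf1. Without it, DT minus PBS was 1.07 for Isg15, 0.77 for Ifi44, 0.68 for Ifit1 and 0.54 for Xaf1, and DT minus WT PBS was 0.29, 0.71, 0.09 and 0.06 in the same order, so that Ifit1 and Xaf1 no longer met the rule. The same held for Gm9706, described below, and for 4930423D22Rik.

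Of the 21 measured genes of the fixed interferon list, 19 were highest in replicate 3 among the 4 DT arrays, as were 28.9% of all genes, and its median excess over the other 3 was 0.78 (all genes 0.01). The list, which holds Isg15, Ifit1 and Ifi44, had a median of -0.17 with age (16 of 21 below 0), 0.57 for DT minus PBS (21 above 0), 0.25 for DT minus WT PBS and 0.03 for WT DT minus WT PBS. Against 2 months 7 rose after DT and 0 fell (all genes 14.8% and 15.9%). These included Isg15, Oas2 (0.99) and the chemokines Cxcl9 (3.96) and Cxcl10 (2.36). Both chemokines were also higher with age, by 2.35 and 1.20, and so departed from the pattern of the members.

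Gm9706 followed Isg15 on the arrays, with 0.21, 0.03, 0.12 and -0.05 with PBS and 0.41, 0.41, 1.60 and 0.57 with DT. Its probe, placed in the files at chr17:46543886-46543945 on mm9, shares 35 bases with the Isg15 probe at chr4:155573649-155573708, and of the 741 pairs of member probes no other shared more than 10. The first 30 bases of that run are positions 1 to 30 of the Gm9706 probe and 22 to 51 of the Isg15 probe, counted from the 5′ end, and are given in capitals because they are common to both.
Gm9706 and Isg15: CCATCCAGAGCCAGTGTTGGTTATAAAAGA
The signal of Gm9706 can therefore not be told apart from that of Isg15.

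**Figure D3:**
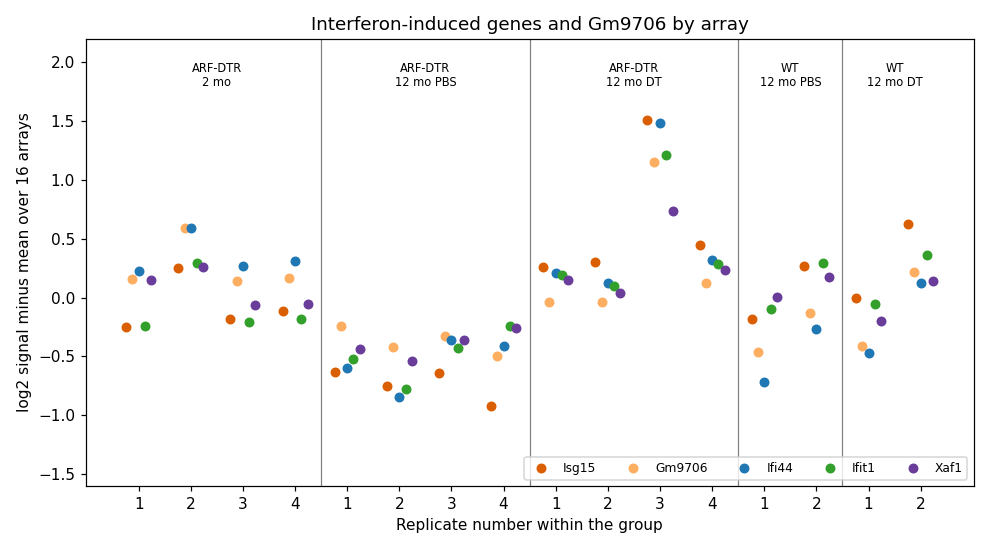
Log2 signal of 4 interferon-induced genes and Gm9706 on the 16 arrays, each as the difference from its mean over all arrays, by group and replicate number. ARF-DTR DT replicate 3 is the highest DT array for all 5, and WT DT replicate 2 lies above replicate 1 for all 5.

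Myh7, the slow cardiac myosin heavy chain, read 1.95, 1.53, 1.69 and 1.61 at 2 months, 0.93, 0.67, 1.12 and 1.25 with PBS, 2.19, 2.08, 1.67 and 2.06 with DT, 1.70 and 1.45 in WT with PBS and 1.71 and 1.33 in WT with DT. LOC100862557, described in the files as similar to a myosin heavy chain, has a probe at chr14:55589521-55589580 (mm9), directly beside the Myh7 probe at chr14:55589581-55589640 with a gap of 0 bases, and had the same signs in all 3 differences of the rule (-0.69, 0.68 and 0.36). For DT minus PBS the other 11 genes of the cardiac muscle list had the opposite sign, all below 0 (median -1.21, range -1.51 to -0.92), where Myh7 was at 1.01. For DT minus WT PBS 8 of the 11 were above 0 (median 0.06, range -0.42 to 0.49), as was Myh7 at 0.42. With age all 11 were above 0 (median 0.88), but 2-month replicate 1 was far lower for these genes, at a mean of -1.22 where the other 2-month arrays read 2.21 to 3.53. Without it 9 of the 11 were below 0 with age (median -0.13, range -0.85 to 0.03), and Myh7 was at -0.62. In the WT mice all 11 were higher with DT than with PBS (median 0.69) and Myh7 was at -0.05. The mean of the 11 genes was 2.28 to 3.31 with PBS, 1.29 to 2.16 with DT and 1.39 to 1.84 in WT with PBS, so the ARF-DTR PBS arrays lay above the arrays of both these groups, and it was 2.04 to 2.55 in WT with DT, which overlapped with them. Its part in the Myh7 result was not tested.

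**Figure D4:**
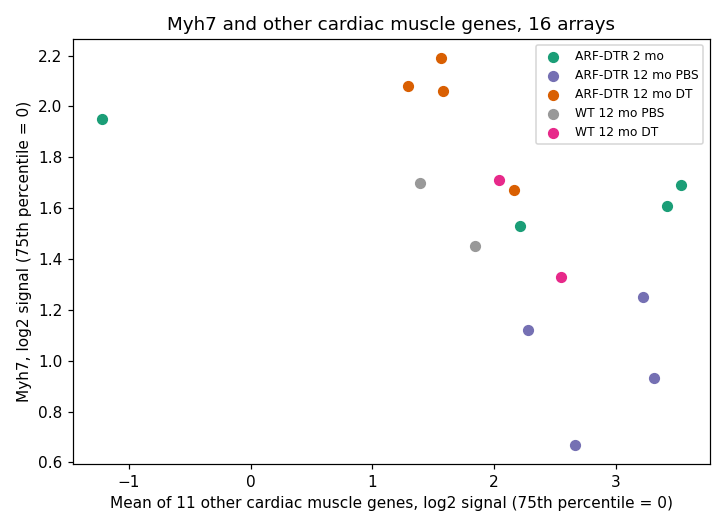
Myh7 (vertical) against the mean of 11 other cardiac muscle genes (horizontal), both as log2 signal with 0 at the 75th percentile, with a point per array coloured by group. The PBS arrays are low for Myh7 at 0.67 to 1.25 and at 2.28 to 3.31 for the other cardiac genes, and 2-month replicate 1 stands apart at -1.22.

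Other members were transcripts without a settled role or genes outside these roles. AK086457 (chr10:18516613-18516672) and D10Bwg1379e, listed as Arfgef3 in RefSeq (chr10:18308321-18308380), lie on the same chromosome on mm9. AK086457 read -3.08, -2.92, -2.86 and -2.94 at 2 months, -5.02, -5.41, -4.66 and -4.85 with PBS and -3.08, -3.79, -4.50 and -3.87 with DT. D10Bwg1379e was 0.64 lower with age and 1.28 higher with DT. The transcript 1700018F24Rik was 1.73 lower with age and 0.91 higher with DT, but it was well above background on only 2 of the 4 PBS arrays. Of the 2 lincRNA probes, that on chromosome 17 (chr17:45525578-45525637) was well above background on 4 arrays at 2 months, 0 with PBS and 1 of 4 with DT, with at least 1.75-fold more at 2 months than with PBS, and DT close to background too. The probe on chromosome 5 (chr5:92563461-92563520) was 0.66 lower with age and 0.75 higher with DT. It was well above background on 2 of the 4 ARF-DTR PBS arrays and on 0 WT arrays. TC1646147, Shisa4, 2200002D01Rik, Ypel1, Zcchc14, 4930423D22Rik, the Wnt pathway inhibitor Tmem88 and the nicotinic receptor subunit Chrnb1 were 0.43 to 0.65 lower with age and 0.41 to 1.02 higher with DT.

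On all 16 arrays 32 of the 39 member probes passed the test for background. Another probe of the same gene was kept for 11 members, 13 probes in total, of which 8 had all 3 signs of the rule and 4 passed it (Isg15, Matn4, Nnat and Thbs3). Both other probes of Epha7, that of Xaf1, 1 of 2 for Ypel1 and that of the chromosome 17 lincRNA did not have the 3 signs. The dimmer of the Epha7 probes, at a mean of -4.55, was at 0.40 with age and -0.68 for DT minus PBS. The other, at a mean of -3.11, was at -0.21 and -0.01. These probes were read on the same arrays from the same RNA samples, and which transcripts each reads was not examined.

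The rule set no difference between DT and 2 months in ARF-DTR, but it chose both groups to lie above PBS and the DT arrays also to lie above WT PBS. The values for this comparison are therefore a description of the members, and its counts support nothing about them. The median over members was 0.13 (all genes -0.03), with 29 of 39 above 0 (all genes 45.5%). In limma's fit of all 25606 genes, 6 members lay past the threshold as higher after DT than at 2 months and 3 as lower, where 14.8% and 15.9% of all genes did. The 6 were Sprr1a (1.13 ± 0.19 SE), Nnat (1.18 ± 0.23), Clec4b1 (0.81 ± 0.15), Aadac (1.19 ± 0.32), Tprg (0.45 ± 0.15) and Isg15 (0.71 ± 0.25). The 3 were Veph1 (-1.21 ± 0.21), 1700018F24Rik (-0.82 ± 0.23) and AK086457 (-0.86 ± 0.28). The members' counts were thus near or below the background over all genes. In 23 members the means were within 0.25 of each other, in 13 DT was more than 0.25 above, and in 3 more than 0.25 below, with standard errors of 0.096 to 0.42, so differences of this size could not be resolved in the members with the larger errors. All 4 DT arrays lay above all 4 2-month arrays in 7 members (all genes 14.6%) and below in 3 (14.7%). Isg15 fell short of the threshold without DT replicate 3 (0.41) and without any of 2-month replicates 1, 3 and 4 or DT replicate 4, and, through the pooled spread, without any 1 of the 4 ARF-DTR PBS or 2 WT PBS arrays. The call for AK086457 was lost without any of 2-month replicates 2, 3 and 4 or DT replicates 2, 3 and 4, and that for Tprg without any of 2-month replicates 2, 3 and 4 or DT replicate 4. That for 1700018F24Rik was lost without 2-month replicate 4 or DT replicate 4. This comparison crosses slides.

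DT against PBS in WT mice was compared on 1 slide. The WT DT arrays were not used by the rule, but it kept genes whose WT PBS mean lay at least 0.2 below ARF-DTR DT. That favours low WT PBS readings, which push WT DT minus WT PBS upward in the members. The values below are therefore a description of the members, and their counts and p-values support nothing about them. The median over members was 0.28 (all genes -0.02), and 32 of 39 were above 0, as were 45.1% of all genes. With limma 0 members passed in either direction at an adjusted p under 0.05, where 14 of 25606 genes rose (0.0547%) and 32 fell (0.125%). At an unadjusted p under 0.05, 9 members were higher (all genes 5.21%) and 0 lower (7.5%). Those were 4930423D22Rik (0.89 ± 0.18 SE, adjusted p = 0.071 with limma), Aadac (adjusted p = 0.058) and Tprg (adjusted p = 0.096), which were not well above background in WT with PBS and were at least 4.60-fold and at least 1.93-fold higher with DT, and 1700018F24Rik, Sprr1a, Mmp2, Epha7, Ppic and Clec4b1. Aadac passed in limma's fit when WT PBS replicate 1 was left out (adjusted p = 0.0141), and Aadac and Tfpi2, neither well above background in WT with PBS, when WT DT replicate 2 was (adjusted p = 0.0345 and 0.0378, with 1 array assumed to vary like the other groups). Through the pooled spread Aadac also passed without ARF-DTR DT replicate 2 (adjusted p = 0.0489). Both WT DT arrays were above both WT PBS arrays in 12 members (all genes 18.8%) and below in 0 (24.7%).

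The 2 WT DT arrays differed from each other in these genes. Replicate 1 was above replicate 2 in 31 of 39 members (all genes 50.6%), and by at least 0.4 in 22 (7.84%), with a median difference of 0.49 (all genes 0.00). The exceptions included all 4 interferon-induced genes and Gm9706, which were higher in replicate 2, so that of the other 34 members 31 were higher in replicate 1. For Tfpi2 replicate 1 was well above background and replicate 2 was not. The gap was 1.50 for Cdh16, 1.17 for Mmp19, 1.09 for AK086457, 1.05 for Thbs3, 1.04 for Siglec5 and 0.98 for Nnat. Against the mean of WT PBS, the members' median was 0.62 in replicate 1 and 0.05 in replicate 2. The 2 WT PBS arrays were closer, with a median difference of 0.10 (all genes 0.03).

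**Figure D5:**
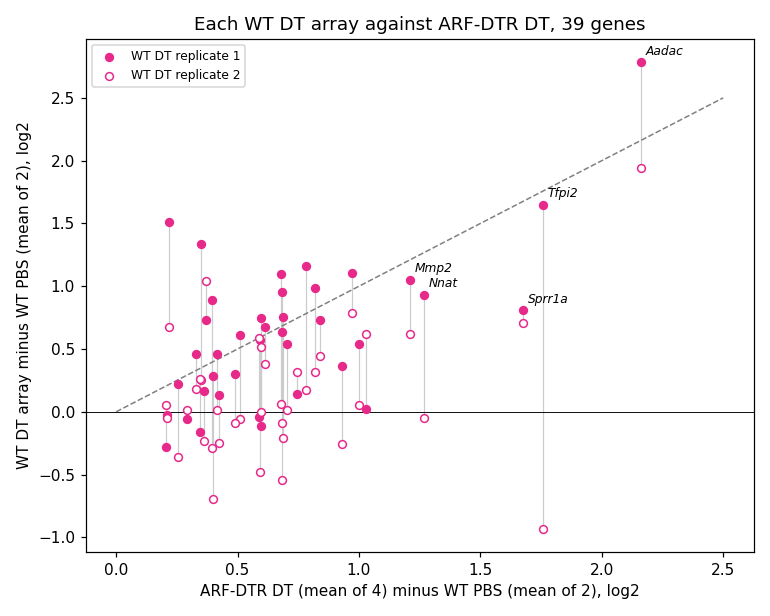
For each of the 39 genes, the difference of WT DT replicate 1 (filled) and replicate 2 (open) from the mean of WT PBS (vertical, log2) against ARF-DTR DT minus WT PBS (horizontal, log2), with a grey line joining the 2 points of a gene and a dashed line of equal difference. The filled points lie above the open ones in 31 of 39 genes.

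ARF-DTR DT and WT DT lay on the same slide but in different rows of it. The members' median for ARF-DTR DT minus WT DT was 0.32 (all genes 0.01), with 35 of 39 above 0 (all genes 52.4%), and it was 0.10 against WT DT replicate 1 alone and 0.57 against replicate 2 alone. All 4 ARF-DTR DT arrays lay above both WT DT arrays in 6 members, Sprr1a, Veph1, Capn6, Pnpla5, Tmem88 and Zcchc14 (all genes 14.2%), and below both in 2, 1700018F24Rik and 4930423D22Rik (all genes 10.2%). Against replicate 1 alone they were all above in 11 members (all genes 27.7%), and against replicate 2 alone in 28 (27.9%). The rule chose high ARF-DTR DT arrays, so this comparison has no test. Whether DT acted differently in the 2 genotypes was therefore not tested in these genes.

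WT and ARF-DTR mice given PBS, which lay on different slides, differed by a median of 0.23 over members (all genes 0.02). WT was higher in 31 of 39 (all genes 52.7%). The rule chose low ARF-DTR PBS arrays, so this comparison has no test and its counts support nothing about the members. Both WT PBS arrays were above all 4 ARF-DTR PBS arrays in 17 members (all genes 26.8%) and below in 3, Mmp2, Tfpi2 and Epha7 (21.7%). Of the 5 group means, ARF-DTR PBS was the lowest in 31 members and WT PBS in 8, while ARF-DTR DT was the highest in 28, 2 months in 8 and WT DT in 3. The rule fixed much of this order, as it placed ARF-DTR PBS below 2 months and DT, and WT PBS below ARF-DTR DT. The genes outside the rule whose levels followed Matn4 most closely over the 16 arrays were Pik3r3 (Pearson r = 0.949), Atrnl1 (0.941), Marveld1 (0.934), Trappc3 (0.927) and Hipk2 (0.925), given as a description of arrays that share slides and groups. Their levels were 0.34 to 0.77 lower with age and 0.43 to 0.81 higher after DT, but only 0.06 to 0.13 above WT PBS after DT.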

How the data were processed

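The authors deposited, per the file headers, Agilent Feature Extraction output for each array (version 10.10.1.1 per the submitters' processing notes), with intensity values in 1 channel on a design placed on mm9, and a table of log2 values whose columns matched log2 processed signal minus the 75th percentile of the array to within 0.0105. The rule was applied to that table. Tests used the scanner intensity: control and outlier spots were left out, spots of a probe averaged, log2 taken and the 75th percentile subtracted. The 37046 probes well above background on at least 4 of 16 arrays were kept, and the brightest stood for each gene.

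Groups came from the titles; the labels do not say that samples are separate mice, so p-values measure the spread between samples. limma 3.58.1 (R 4.3.3) fitted a mean per group over 16 arrays, two-sided, with Benjamini-Hochberg adjustment at 0.05; ± is a standard error. On simulated data of 25555 genes it recovered 65.5% of 2-fold changes for DT in wild type and 83.5% for DT against 2 months. Of 1.5-fold changes it recovered 28.5% and 68% in the same order. The simulation changed 200 genes and drew independent normal noise for each, whereas 7862 genes were called in the real DT against 2 months. The WT DT arrays also differed together in many members, so these rates need not hold for the real comparisons. The members and the gene lists were chosen with earlier results of these data known. Genes named with values were those with the largest differences, the brightest, list members and those next to the thresholds; the rest were added to account for all. Of the members, 33 had a RefSeq symbol. Alternatives were the value table, normexp (offset 50) with quantile normalization, median scaling, other filters, a replicate block, an intensity trend and leaving out each array.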

Additional observations from a re-analysis of the deposited data

Results flagged for a closer look

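Of 117 groups of 4 arrays examined (39 genes in 3 groups), 13 had 1 array far from the other 3 by Dixon's criterion. Chance gives this in about 5% of groups that were not chosen by their values. The rule chose these groups by their values, and genes that move together are counted separately, so the 13 cannot be read as an excess. Those in DT replicate 3 of ARF-DTR were Ifi44 at 1.36 (others 0.00 to 0.20), Isg15 at 4.52 (others 3.27 to 3.46), Gm9706 at 1.60 (others 0.41 to 0.57), Ifit1 at 1.45 (others 0.34 to 0.52), and LOC100862557, which was low at 2.63 (others 2.95 to 2.98). Among the 2-month arrays, replicate 2 was high for Gm9706 at 1.04 (others 0.59 to 0.62) and Ifit1 at 0.53 (others 0.00 to 0.06), and replicate 1 was high for LOC100862557 at 3.31 (others 2.73 to 2.76).

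With DT, Matn4 was low in replicate 4 at 2.01 (others 2.19 to 2.23), Nnat low in replicate 2 at -0.60 (others 0.19 to 0.35) and Thbs3 high in replicate 1 at 4.18 (others 3.78 to 3.85). With PBS, Thbs3 was low in replicate 3 at 3.23 (others 3.47 to 3.52) and the chromosome 17 lincRNA low in replicate 1 at -7.48 (others -5.92 to -5.71).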

How the results depend on the processing

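The rule gave 39 genes with the value table, and the same 39 from scanner values. It gave 25 with normexp and quantile normalization (22 of them shared), 101 without the criterion on WT PBS, 48 with median scaling, 50 when the criteria came before the brightest probe, 38 with a filter of 8 arrays and 44 with none. Leaving out 1 array gave 35 to 73 genes, with 62 without PBS replicate 2 and 73 without PBS replicate 4 of ARF-DTR, and 25 members met the rule whichever array it used was left out. The cause was not tested.

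For DT in wild type, members called higher were 1 (Aadac) with a replicate block and 1 (Aadac) with an intensity trend, and 0 to 2 without 1 array. All genes called were 46, 0 in a fit of only the wild type groups, 76 to 232 without 1 wild type array and 21 (without ARF-DTR DT replicate 4) to 46 without 1 ARF-DTR array. Calls of higher genes made up 30.4%, 41.2% with median scaling, 42.9% without a filter, and without 1 array from 10.2% (WT PBS replicate 2) to 55.2% (WT DT replicate 2), so the larger side turned. For DT against 2 months, members past the threshold as lower were 1 to 3, and as higher 4 to 6 without 1 array of the 2 groups and 4 to 7 without any 1 of the 16, the added one being D10Bwg1379e. The replicate numbers did not pair the samples (correlations of deviations -0.2 to 0.331); with the replicate block 65 and 7872 genes were called in the 2 comparisons (46 and 7862 without). The median for ARF-DTR DT against wild type DT was 0.10 to 0.57 without 1 array. Isg15 and Tprg lost their calls against 2 months without a filter, Isg15 also in a fit of only the groups compared and Tprg also with normexp and with an intensity trend. Sprr1a, Nnat, Clec4b1, Aadac and Veph1 kept theirs in all alternatives run. The rule chose both groups of this comparison, and every alternative drew on those same arrays across slides. A kept call therefore adds no support for a difference in the members. The limits are 2 arrays per wild type group, slides that coincide with DT in ARF-DTR, and 7 members not well above background on every array. A further limit is that array row cannot be told apart from group in the differences of the rule.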
